A study of Mus musculus with 6 samples.

Results

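The potassium channel genes described here are the protein coding mouse genes whose symbols begin with Kcn, the family prefix for the pore-forming and accessory subunits of potassium channels. The rule found 92 such genes among the 41064 genes of the deposited table, after 5 Kcn names that belong to antisense or other non-coding genes were left out. By name they fall into 39 voltage-gated channels, 8 calcium-activated channels and their relatives, 15 inward rectifiers, 13 two-pore channels and 17 accessory subunits. RNA was sequenced from mouse aorta in 6 libraries, 3 of genotype WT and 3 of genotype JOSD2 KO, and every mouse of both groups had received Ang II, the peptide hormone angiotensin II that raises blood pressure and drives thickening of the arterial wall. JOSD2 is a deubiquitinase, an enzyme that removes ubiquitin from other proteins, and the study asked how its loss alters the vessel under angiotensin II. The labels name no age, sex, strain background, hormone dose or duration, and no kind of knockout, and aortas without angiotensin II were not analysed here, so values compare genotypes under the hormone only. Nothing in the labels says whether a library is 1 mouse or a pool, and p-values measure the spread between these libraries, which need not be the spread between mice.

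Potassium channels let potassium leave the cell, which pulls the membrane potential of arterial smooth muscle towards more negative values, closes voltage-gated calcium channels and relaxes the vessel. Voltage-gated channels of the Shaker, Shab, Shaw, Shal, KCNQ and ERG types open on depolarization, the large-conductance calcium-activated channel BK answers local calcium release, and inward rectifiers and two-pore channels set the resting potential. The ATP-sensitive channel KATP of vessels pairs an inward rectifier pore with a sulfonylurea receptor and is the target of vasodilator drugs. Accessory subunits tune gating and trafficking of the pores.

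The 250 bases before the RefSeq start are printed, on the gene's strand, for the 2 members with the largest rises (Kcnc4 and Kcnf1), the member with the largest fall that passed the test (Kcnn4), and Kcnj2, a vessel wall channel that also fell. They are credited to RefSeq on GRCm38.p6, in which 67 of the 92 members and 13 of the 14 genes that passed the test below had a window. The windows are chr3:107458899-107459148 on the minus strand for Kcnc4, chr12:17176889-17177138 on the minus strand for Kcnf1, chr7:24370013-24370262 on the plus strand for Kcnn4 and chr11:111065914-111066163 on the plus strand for Kcnj2.
Kcnc4: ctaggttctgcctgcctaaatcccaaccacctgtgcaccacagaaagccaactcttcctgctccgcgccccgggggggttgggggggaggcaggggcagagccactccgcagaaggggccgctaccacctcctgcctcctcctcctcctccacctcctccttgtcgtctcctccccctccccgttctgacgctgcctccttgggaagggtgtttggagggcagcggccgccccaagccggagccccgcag
Kcnf1: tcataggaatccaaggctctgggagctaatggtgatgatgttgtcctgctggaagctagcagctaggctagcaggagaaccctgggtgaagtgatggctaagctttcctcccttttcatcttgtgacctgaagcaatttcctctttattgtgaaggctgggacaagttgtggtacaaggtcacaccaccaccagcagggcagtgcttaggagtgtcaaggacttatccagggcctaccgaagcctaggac
Kcnn4: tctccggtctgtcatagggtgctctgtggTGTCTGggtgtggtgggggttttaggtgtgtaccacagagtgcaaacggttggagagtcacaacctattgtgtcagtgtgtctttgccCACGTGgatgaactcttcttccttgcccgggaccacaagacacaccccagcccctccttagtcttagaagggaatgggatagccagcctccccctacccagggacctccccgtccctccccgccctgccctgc
Kcnj2: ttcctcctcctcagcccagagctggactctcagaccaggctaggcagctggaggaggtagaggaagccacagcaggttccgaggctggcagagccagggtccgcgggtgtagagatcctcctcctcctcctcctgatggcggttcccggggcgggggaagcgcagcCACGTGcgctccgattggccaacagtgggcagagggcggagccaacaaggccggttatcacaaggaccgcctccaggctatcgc
Capitals mark exact matches, on either strand, to 4 motifs that were chosen after the windows had been seen. These were CAGACA (a SMAD binding element), TGANTCA (the site of AP-1), CACGTG (an E box) and the CArG box of serum response factor. Kcnn4 holds CAGACA with its first base 221 bases before the start, read on the opposite strand, and CACGTG at 133, and Kcnj2 holds CACGTG at 84. The matches do not overlap, and CACGTG reads the same on both strands. None of the 4 strings occurs in the windows printed for Kcnc4 and Kcnf1, and the start used for Kcnc4 lies 654 bases inside the gene as the table bounds it. Over all 32851 RefSeq windows the shares with a match were 17.1% for CAGACA, 6.75% for TGANTCA, 6.02% for CACGTG and 1.47% for the CArG box, against 22, 4, 6 and 0 of the 92 windows that the members hold. The windows also differed in CpG dinucleotides, with 12 for Kcnc4, 1 for Kcnf1, 6 for Kcnn4 and 14 for Kcnj2 beside a median of 6. A match is a stretch of letters and no measurement of binding.

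Josd2 itself was read first as a check of the labels. Its level was 9.58, 9.94 and 9.42 in the 3 wild type libraries and 6.95, 6.39 and 6.86 in the libraries labelled knockout. Levels here are FPKM, fragment counts per kilobase scaled to library size, put on the scale of TMM, a library factor from edgeR that sets most genes to no change. The groups did not overlap and Josd2 fell by 0.52 on the log2 scale (SE 0.07, adjusted p = 0.000244, edgeR), so most of its RNA remained in libraries labelled knockout, and the labels do not name the deleted part of the gene. With plain library totals its log2 fold change was -0.11 (adjusted p = 0.231, edgeR).

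The scale matters for every potassium channel gene, and mitochondrial genes took 36.15% to 36.21% of counts in wild type and 23.82% to 23.87% in libraries labelled knockout. Libraries of a group thus differed very little in this share. Library totals were 63612353 to 75886761 counts. Against TMM, scaling by these totals raised the median gene's log2 fold change by 0.41, and totals without mitochondrial genes raised it by 0.15. Leaving out 8 nuclear copies of mitochondrial genes too, a setting added after the data were seen, left a rise of 0.028. The libraries split by genotype on the first principal component, with 40.6% of the variance. Markers of cell types moved with genotype too, and the summed FPKM of 11 of the 14 lists read did not overlap between groups. All 8 endothelial markers were higher, and their summed FPKM went from 60.3 to 61.1 in wild type to 98.9 to 100.4 in libraries labelled knockout. Of 7 macrophage markers 5 were lower and 1 higher (sums of 176 to 181 against 93.0 to 97.5), and all 6 cell cycle genes were lower (9.13 to 11.2 against 2.16 to 2.32). Of 8 smooth muscle markers 4 were higher and 2 lower (6646 to 6707 against 6112 to 6135), with sums above those of every other list in all 6 libraries. Of 6 fibroblast markers 2 were higher and 4 lower (445 to 453 against 404 to 409), of 6 white adipocyte markers 3 were higher (24.9 to 26.2 against 34.0 to 37.3), and of 5 lung epithelium markers 4 were lower (11.3 to 14.2 against 1.43 to 2.05). Sums were also higher for brown adipocyte markers (1 of 3 tested higher, 0 lower) and cardiac muscle markers (2 of 6 tested higher, 1 lower). They were lower for skeletal muscle markers (0 of 7 higher, 1 lower) and kidney tubule markers (0 of 5 tested higher, 1 lower), each at or under 10.6 FPKM. The brown adipocyte median log2 fold change was -0.24, and Cidea carried that sum (means of 4.98 and 7.65 FPKM). Acta1 was the skeletal muscle marker that fell (means of 2.30 and 0.135 FPKM). Sums overlapped for T cell markers (3 of 7 higher, 0 lower), Schwann cell markers (1 of 7 higher, 2 lower) and neuron markers (0 of 6 tested higher, 2 lower). The neuron sum was nearly all Uchl1, with means of 39.1 FPKM in wild type and 40.4 in libraries labelled knockout, while Tubb3 and Elavl4 were lower. No marker of the 14 lists was at 0 in all libraries, and the part of these shifts in the potassium channel values was not tested. In tissue RNA, fewer cells of a type and less RNA per cell cannot be told apart.

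Of the 92 members 62 had enough counts to be tested and 30 did not, 8 of these at 0 in every library. The test was edgeR's quasi-likelihood test with p-values adjusted over all 20132 genes tested and a threshold of 0.05. In libraries labelled knockout 8 members were higher (among them Kcnc4, Kcnf1, Kcns3, Kcnt2, Kcnip3, Kcnd3 and Kcnj15), 12.9% of those tested beside 13.2% of all genes tested. Another 6 were lower (Kcnn4, Kcnab2, Kcnj2, Kcna5, Kcna2 and Kcnmb1), 9.68% beside 11.5%. The 14 together were 22.6% of members tested beside 24.7% of all genes tested, so as a group potassium channel genes were called at close to the background share. This comparison does not adjust for level. Of the 62 members tested 17 had a mean under 0.1 FPKM, beside 2303 of the 20132 genes, and calls by level are given below. The median log2 fold change over the members tested was -0.12 and over all genes tested -0.0031. Groups did not overlap for 26 of the 62, 41.9% beside 41.1% of all genes. Both called and at least 2-fold apart were 5 of the 62, beside 1200 of all 20132 genes (5.96%). With library totals, 21 of the 62 members were higher and 3 of the 62 lower, where 46.8% and 3.81% of all genes were.

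**Figure D1:**
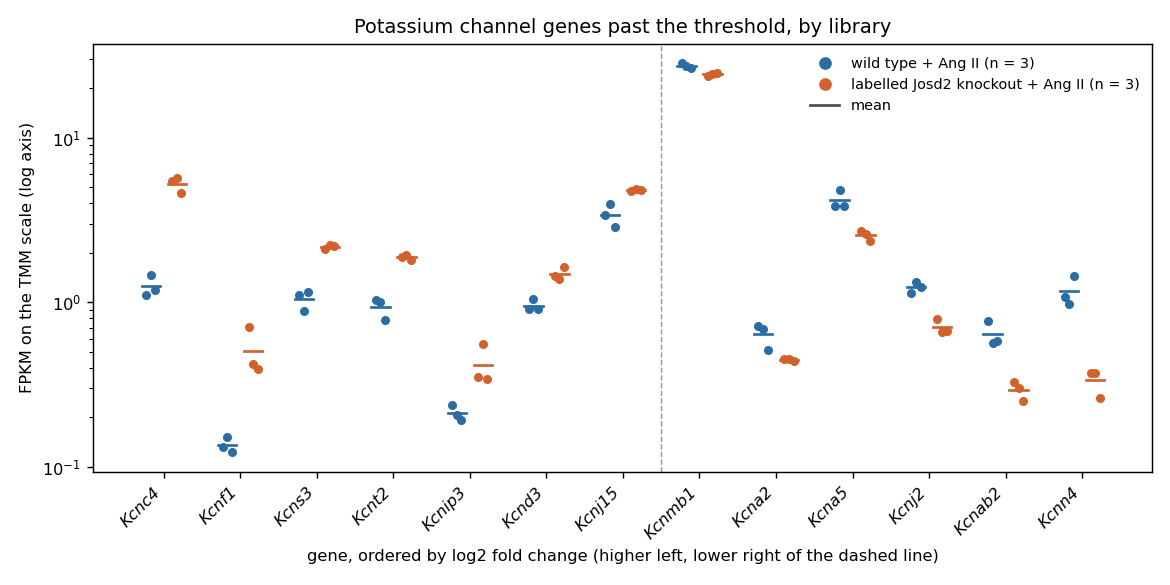
FPKM on the TMM scale (log axis) in each of the 3 wild type and 3 labelled knockout libraries, given Ang II, for 13 potassium channel genes past the threshold, with points for libraries and bars for group means. Kcnc4 lies between 1.11 and 1.46 in wild type and between 4.6 and 5.70 in libraries labelled knockout, and the groups of each gene are apart.

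Voltage-gated channels held the highest folds. Of 39 genes 25 were tested, of which 5 were higher, 2 lower and 18 did not pass, with a median log2 fold change of -0.02. The share called was 28.0%, close to the 24.7% of all genes tested. Kcnc4, a Shaw-type pore gene that gives fast, rapidly inactivating currents, lies at chr3:107438303-107459552 on the minus strand. It measured 1.11, 1.46 and 1.19 FPKM in wild type and 5.43, 5.70 and 4.6 in libraries labelled knockout. The lowest library labelled knockout was well above the highest wild type library. The change was 4.18-fold, a log2 fold change of 2.07 (SE 0.13, 95% interval 1.78 to 2.35, adjusted p = 6.77e-07, edgeR), and Kcnc4 passed in the same direction in all 17 alternative fits. Of the other Shaw-type genes Kcnc1 was at 0 in all libraries.

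Kcnf1 and Kcns3 encode electrically silent subunits, which make no channel alone and change the currents of Shab-type pores when they join them. Kcnf1, at chr12:17172100-17176888 on the minus strand, measured 0.132, 0.152 and 0.122 FPKM in wild type and 0.703, 0.419 and 0.393 in libraries labelled knockout. It was 3.70-fold higher (log2 1.89, SE 0.31, adjusted p = 0.0011, edgeR), with the first library labelled knockout above the other 2. Kcns3, at chr12:11090202-11151056 on the minus strand, measured 1.11, 0.883 and 1.15 FPKM against 2.11, 2.22 and 2.19, a 2.07-fold rise (log2 1.05, SE 0.16, adjusted p = 0.000511, edgeR). The groups were apart for both genes.

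Kcnd3, a Shal-type gene for transient currents, was higher by a smaller amount. It measured 0.905, 1.05 and 0.908 FPKM in wild type and 1.45, 1.37 and 1.63 in libraries labelled knockout (log2 0.64, SE 0.11, adjusted p = 0.00129, edgeR). The groups were apart. Kcnd3 shares 1.72% of its exon bases with an antisense gene, and no label says whether counting used strand. Kcnq5, a KCNQ pore known from arteries, had a log2 fold change of 0.25 that did not pass (95% interval -0.17 to 0.68, adjusted p = 0.392, edgeR). Kcnq1, another KCNQ pore, had one of -0.45 (95% interval -1.26 to 0.36, adjusted p = 0.431, edgeR).

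Both Shaker-type genes that passed were lower. Kcna5, a delayed rectifier of arterial smooth muscle, measured 3.83, 4.82 and 3.83 FPKM in wild type and 2.71, 2.59 and 2.36 in libraries labelled knockout. No library labelled knockout reached the lowest wild type library, and the change was 1.63-fold lower (log2 -0.70, SE 0.13, adjusted p = 0.00187, edgeR). With library totals it was -0.29 and did not pass (adjusted p = 0.0779, edgeR). Kcna2, a Shaker-type gene that can assemble with Kcna5, measured 0.719, 0.683 and 0.511 FPKM against 0.453, 0.449 and 0.441 (log2 -0.51, SE 0.15, adjusted p = 0.033, edgeR). Its groups were close, and it missed the threshold in 10 of 16 alternative fits, among them those without any 1 library other than the third wild type library, with adjusted p up to 0.118 in these. Kcna2, at chr3:107101146-107115005 on the plus strand, lies on the same stretch of chromosome 3 as Kcnc4, which rose. Kcnh2, the ERG channel and the pore gene with the highest level in each wild type library, measured 12.6, 11.6 and 12.5 FPKM against 10.9, 11.2 and 11.6, with overlap, and stood below Kcnj8 in each library labelled knockout. Its log2 fold change was -0.12 (95% interval -0.23 to -0.01, adjusted p = 0.115, edgeR) and turned to 0.29 with library totals and 0.036 with totals without mitochondrial genes. It was -0.09 with nuclear copies left out too.

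Within each library, the make-up of the voltage-gated set differed, and these shares do not depend on scaling between libraries. Shaw-type genes made up 4.23%, 6.01% and 4.72% of summed voltage-gated FPKM in wild type and 16.3%, 17.3% and 14.4% in libraries labelled knockout. Shaker-type genes made up 19.9%, 23.5% and 19.5% against 12%, 13.5% and 11.4%. The Kcnh family, which holds the ERG channel, made up 45.1%, 41.4% and 44.9% against 32.3%, 33.6% and 35.5%. For all 3 families the groups were apart, as they were for Kcnd, Kcnf, Kcnq, Kcns and Kcnv, while Kcnb and Kcng overlapped. A share also moves when other genes change the sum. Kcnh2 itself had means of 12.2 FPKM in wild type and 11.3 in libraries labelled knockout, with overlap. Kcnc4 alone went from 4.42% ± 0.651 to 15.5% ± 1.46 of the sum and Kcna5 from 14.7% ± 2.05 to 7.55% ± 0.389 (SD, n = 3 each). The ratio of Kcnc4 to Kcna5 was 0.289, 0.302 and 0.311 in wild type and 2.0, 2.20 and 1.95 in libraries labelled knockout, so the gene with the higher level changed from Kcna5 to Kcnc4. The pairs of genes given as ratios were chosen after their values had been seen, so they are given without a test.

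**Figure D2:**
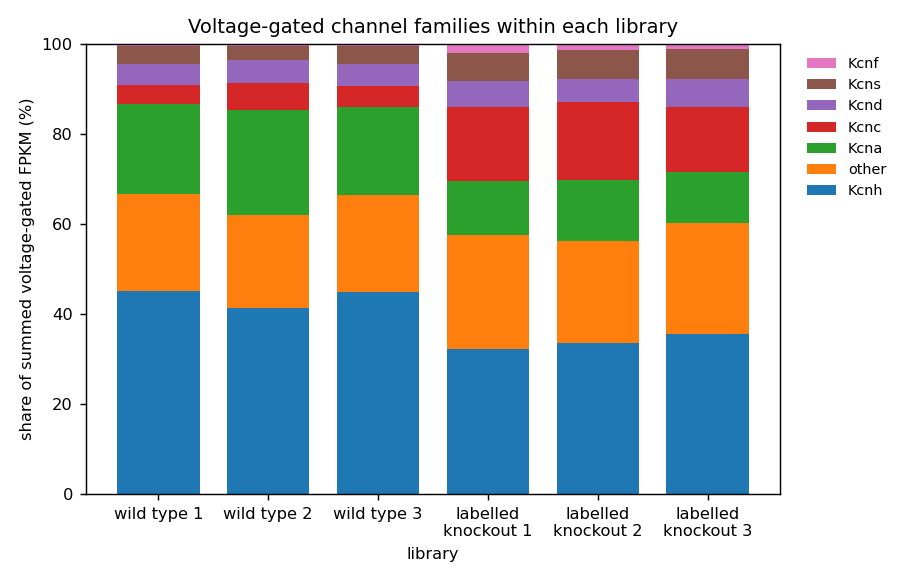
Share of summed voltage-gated FPKM (percent, linear axis) that Kcn families took in each of the 6 libraries, as stacked bars with the families not drawn singly pooled as other. The Kcnc segment widens from 4.23% to 6.01% in wild type to 14.4% to 17.3% in libraries labelled knockout, while the Kcna and Kcnh segments narrow.

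Among calcium-activated channels and their relatives 7 of 8 genes were tested, with 1 higher, 1 lower and 5 that did not pass (median log2 fold change -0.42). That is 28.6% called beside 24.7% of all genes tested. Kcnn4, the intermediate-conductance channel of endothelium, immune cells and proliferating smooth muscle, lies at chr7:24370263-24385205 on the plus strand. It measured 1.07, 0.975 and 1.45 FPKM in wild type and 0.370, 0.372 and 0.263 in libraries labelled knockout. Every library labelled knockout was far below every wild type library, and the change was 3.44-fold lower (log2 -1.78, SE 0.22, 95% interval -2.27 to -1.30, adjusted p = 0.000129, edgeR). Kcnn4 passed as lower in all 16 alternative fits that tested it. Among the cells it is known from, macrophage and cell cycle markers were lower in libraries labelled knockout and endothelial markers higher (sums above). Of 7 T cell markers 3 were higher and 0 lower, with sums of 1.33 to 3.22 FPKM in wild type and 2.84 to 4.04 in libraries labelled knockout that overlapped. The part of these cells in the fall was not tested. Kcnn3, the small-conductance channel of endothelium, measured 0.206, 0.156 and 0.239 FPKM against 0.110, 0.148 and 0.145, and its log2 fold change of -0.58 did not pass (95% interval -1.16 to 0.01, adjusted p = 0.147, edgeR).

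Kcnt2, which belongs to the same structural family as BK and is opened by sodium, was the member of this class that rose. It measured 1.04, 0.997 and 0.780 FPKM in wild type and 1.88, 1.92 and 1.82 in libraries labelled knockout (log2 1.0, SE 0.13, adjusted p = 0.000162, edgeR). All libraries labelled knockout lay above all wild type libraries, and Kcnt2 passed in all 17 alternative fits. Kcnma1, the BK pore, measured 1.69, 1.57 and 1.55 FPKM against 1.52, 1.55 and 1.51, with overlap. Its log2 fold change of -0.07 did not pass (95% interval -0.21 to 0.07, adjusted p = 0.487, edgeR). That fold change became 0.34 with library totals and 0.086 without mitochondrial genes, and was -0.04 with nuclear copies left out too. An antisense gene overlaps 5.98% of the exon bases of Kcnma1.

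Kcnmb1, the smooth muscle accessory subunit that makes BK more sensitive to calcium, was the most abundant member of the whole set. It measured 28.3, 27.3 and 26.5 FPKM in wild type and 23.6, 24.3 and 24.9 in libraries labelled knockout. The groups were apart by a narrow margin, 1.13-fold (log2 -0.17, SE 0.04, adjusted p = 0.00703, edgeR), and with library totals the direction turned, to 0.24 (adjusted p = 0.000367, edgeR). With totals without mitochondrial genes it was -0.02 and did not pass (adjusted p = 0.783, edgeR). With nuclear copies of mitochondrial genes left out too, it was -0.14 and passed (adjusted p = 0.0151, edgeR). Against its own pore gene, the ratio of Kcnmb1 to Kcnma1 was 16.8, 17.4 and 17.1 in wild type and 15.5, 15.7 and 16.5 in libraries labelled knockout. That ratio was lower in each library labelled knockout, 17.1 ± 0.338 against 15.9 ± 0.54 (SD, n = 3 each).

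Inward rectifiers numbered 15, of which 8 were tested, with 1 higher, 1 lower and 6 that did not pass (median log2 fold change -0.39). That is 25.0% called beside 24.7% of all genes tested. Kcnj8, the pore of vascular KATP, measured 9.98, 10.5 and 11.1 FPKM in wild type and 12.2, 11.3 and 12.1 in libraries labelled knockout. The groups did not overlap, and the log2 fold change of 0.17 missed the threshold (95% interval 0.03 to 0.32, adjusted p = 0.0804, edgeR), which it passed in 6 of 17 alternative fits. Abcc9, the sulfonylurea receptor that pairs with it, measured 10.0, 10.4 and 10.3 FPKM against 16.6, 16.7 and 17.3 and rose (log2 0.72, SE 0.03, adjusted p = 6.08e-08, edgeR). The ratio of Kcnj8 to Abcc9 was 0.996, 1.01 and 1.08 in wild type and 0.736, 0.673 and 0.699 in libraries labelled knockout. Pore and receptor were thus near equal in FPKM in wild type, and the receptor stood above the pore in libraries labelled knockout. Abcc8, the receptor of pancreatic KATP, was near 0 at 0.0617 ± 0.0328 against 0.0298 ± 0.00884 FPKM (SD, n = 3 each).

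Kcnj15, an inward rectifier best known from kidney, measured 3.37, 3.93 and 2.87 FPKM in wild type and 4.72, 4.89 and 4.81 in libraries labelled knockout. It rose (log2 0.50, SE 0.10, adjusted p = 0.00348, edgeR), with 5.27% of its exon bases under an antisense gene. Among 7 kidney tubule markers 1, Aqp2, passed, as lower, and the list's sum went from 9.73 to 10.5 FPKM to 0.261 to 0.543. Aqp2 carried that sum, with a mean of 9.93 FPKM in wild type and 0.211 in libraries labelled knockout. No other marker of the list had a group mean above 0.06 FPKM. Kcnj1, the inward rectifier of the tubule, was at 0 in all libraries. Kcnj2, the strong inward rectifier of vessel walls, lies at chr11:111066164-111076821 on the plus strand. It measured 1.14, 1.32 and 1.24 FPKM against 0.786, 0.657 and 0.667, a 1.75-fold fall (log2 -0.81, SE 0.15, adjusted p = 0.0023, edgeR). The groups were well apart, and with library totals the log2 fold change was -0.40 (adjusted p = 0.0476, edgeR). Both limma fits missed the threshold for Kcnj2 (adjusted p up to 0.0716). Kcnj12, a close relative that can assemble with Kcnj2, measured 0.340, 0.501 and 0.445 FPKM against 0.269, 0.180 and 0.260. It did not overlap between groups and did not pass (log2 -0.84, 95% interval -1.62 to -0.07, adjusted p = 0.111, edgeR).

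Two-pore channels, the leak channels that set the resting potential, gave no call. Of 13 genes 11 were tested, 0 passed in edgeR (24.7% of all genes) and 0 had an unadjusted p under 0.05. DESeq2 called 0 (32.3% of all genes), and limma on FPKM, which keeps the scale of library totals, called 3 (51.2% of all genes). Kcnk3 measured 0.994, 1.25 and 1.11 FPKM in wild type and 1.3, 1.28 and 1.40 in libraries labelled knockout (log2 0.25, 95% interval -0.09 to 0.59, adjusted p = 0.277, edgeR). Kcnk6, the member of this class with the highest level, had a log2 fold change of 0.15 (95% interval -0.23 to 0.54, adjusted p = 0.581, edgeR). Kcnk2, a channel opened by stretch, and Kcnk13 had wider intervals, -1.37 to 0.66 around -0.35 and -1.21 to 0.42 around -0.39, and both intervals include a 2-fold fall. Both of these low genes turned just above 0 with library totals, at 0.054 and 0.015.

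Accessory subunits numbered 17, of which 11 were tested, with 1 higher, 2 lower and 8 that did not pass (median log2 fold change -0.10). That is 27.3% called beside 24.7% of all genes tested. Kcnab2, a cytoplasmic subunit of Shaker-type channels, measured 0.767, 0.568 and 0.583 FPKM in wild type and 0.325, 0.301 and 0.251 in libraries labelled knockout. It fell 2.18-fold (log2 -1.13, SE 0.20, adjusted p = 0.00196, edgeR), and 2.24% of its exon bases are shared with a gene on the same strand. Its relative Kcnab1, the form known from smooth muscle, measured 6.70, 6.17 and 5.80 FPKM against 5.94, 5.72 and 5.81 and did not pass (log2 -0.10, adjusted p = 0.245, edgeR), with 0.31 under library totals and 0.059 without mitochondrial genes. With nuclear copies left out too, the log2 fold change of Kcnab1 was -0.07. The ratio of Kcnab1 to Kcnab2 was 8.74, 10.9 and 9.96 in wild type and 18.3, 19.0 and 23.1 in libraries labelled knockout, apart in every library. Some cell type marker lists had lower sums in libraries labelled knockout and others higher (above), and the part of any cell type in the fall of Kcnab2 was not tested.

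Kcnip3, a calcium-binding partner of Shal-type channels, measured 0.237, 0.206 and 0.193 FPKM in wild type and 0.353, 0.555 and 0.343 in libraries labelled knockout. It passed narrowly (log2 0.96, SE 0.32, adjusted p = 0.0491, edgeR). The call was lost in 10 of 16 alternative fits, among them those without any 1 of the 6 libraries, with adjusted p from 0.0688 to 0.223. Kcne4, a single-span subunit that joins KCNQ channels in arteries, measured 9.48, 10.5 and 8.44 FPKM against 9.33, 8.97 and 9.0. Its groups overlapped and its log2 fold change was -0.06 (95% interval -0.24 to 0.12, adjusted p = 0.668, edgeR), which turned to 0.35 with library totals, 0.095 without mitochondrial genes and 0.027 without the second wild type library. With nuclear copies left out as well as mitochondrial genes, it was -0.03.

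**Figure D3:**
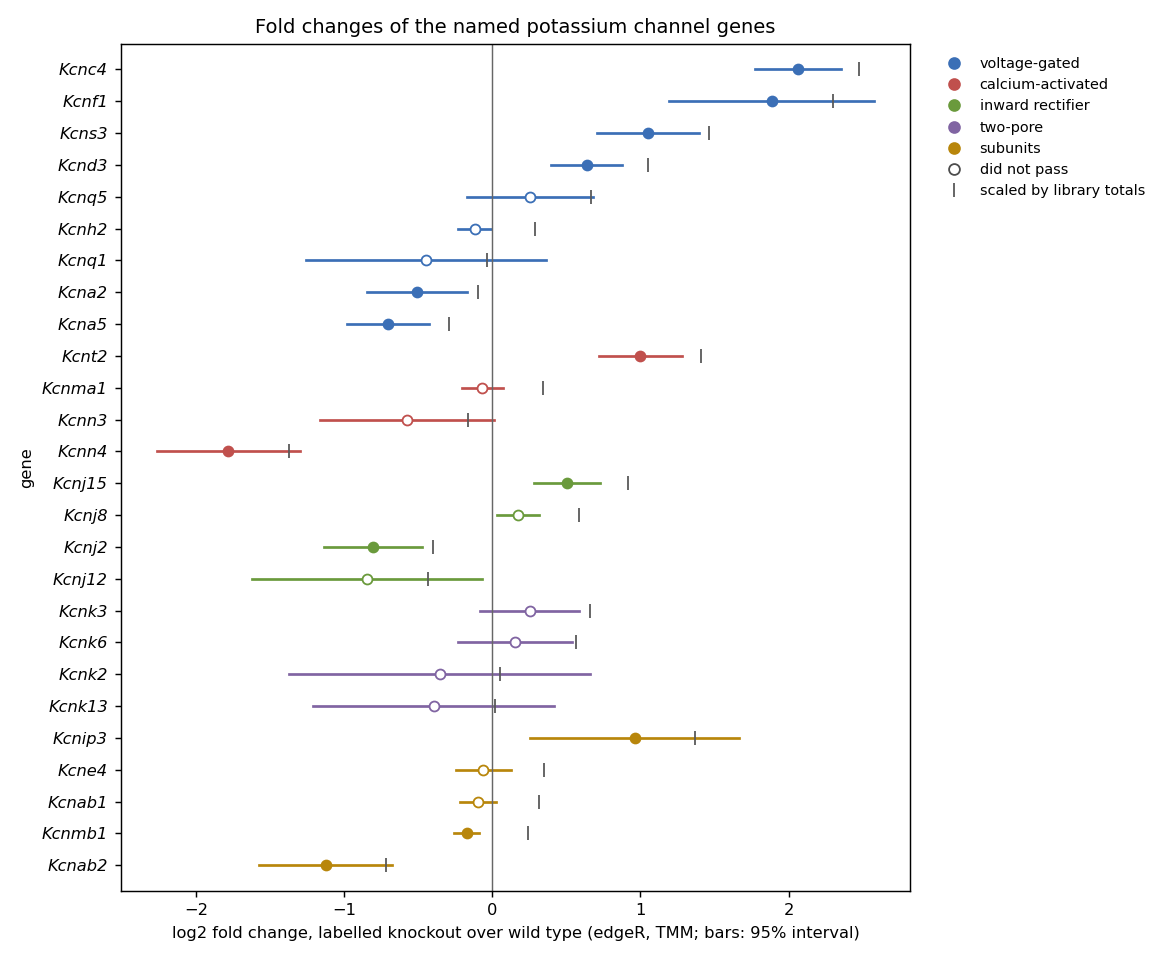
Log2 fold change, labelled knockout over wild type, of the 26 named potassium channel genes, with 95% intervals from edgeR on the TMM scale, filled where the gene passed. The grey ticks give the value with library totals, which sits to the right for each gene and changes the side of 0 for Kcnmb1, Kcnma1, Kcnh2, Kcnab1, Kcne4, Kcnk2 and Kcnk13.

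The list of 18 channels and subunits known from arteries was tested in full, with 1 higher, 5 lower (Kcna2, Kcna5, Kcnj2, Kcnn4 and Kcnmb1) and 12 that did not pass, a median log2 fold change of -0.13 and 33.3% called beside 24.7% of all genes. With library totals 12 of the 18 passed, where 50.6% of all genes did. At that scale Kcnmb1 turned to higher, Kcna2 (log2 -0.10, adjusted p = 0.645, edgeR) and Kcna5 did not pass, and Kcnj2 and Kcnn4 passed as lower. That list was drawn up with earlier results of these data known, so its share called is a description. The strongest risers that passed, Kcnc4, Kcnf1, Kcns3 and Kcnt2, were not put on it, which is a matter of that choice and no result.

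Summed levels of whole classes moved less than the single genes with the largest folds. Voltage-gated genes summed to 28.5, 28.3 and 28.3 FPKM in wild type and 34.3, 34.0 and 33.1 in libraries labelled knockout, 1.19-fold higher. Kcnh2 held 37.8% of the sum, and its mean went from 12.2 to 11.3 FPKM, while that of Kcnc4 went from 1.25 to 5.25. Inward rectifiers summed to 16.2 ± 0.943 against 17.9 ± 0.556 FPKM, with Kcnj8 65.6% of the sum. Neither class overlapped between groups. Accessory subunits summed to 45.4 ± 2.01 against 41.3 ± 0.433 FPKM without overlap, with Kcnmb1 59.6% of the sum, and on the deposited FPKM their direction turned (log2 ratio -0.14 to 0.27). Calcium-activated genes (4.73 ± 0.0626 against 4.47 ± 0.225 FPKM), which also turned on the deposited FPKM, and two-pore genes (3.76 ± 0.664 against 4.06 ± 0.158 FPKM) overlapped (SD, n = 3 each). Exact two-sided permutation p-values were 0.1 for the 3 classes without overlap (adjusted over 5 classes 0.167), 0.2 for calcium-activated and 0.7 for two-pore genes, and 0.1 is the smallest that 3 against 3 allows.

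Levels set what could be seen. Of the 16 tested members with a mean of at least 1 FPKM 8 were called, where 34.8% of all such genes were, and their median SE was 0.0986 on the log2 scale. Between 0.1 and 1 FPKM 6 of 29 were called beside 14.5%, with a median SE of 0.324. Under 0.1 FPKM 0 of 17 were called by edgeR beside 4.08%, with a median SE of 0.93, though 2 had an unadjusted p under 0.05 and DESeq2 called 2. A 2-fold change, 1 on the log2 scale, is close to that last SE. A count of 0 allows up to 3 read pairs, taken as 12 counts, or 0.137 to 0.218 CPM by library, which covers counting error only.

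**Figure D4:**
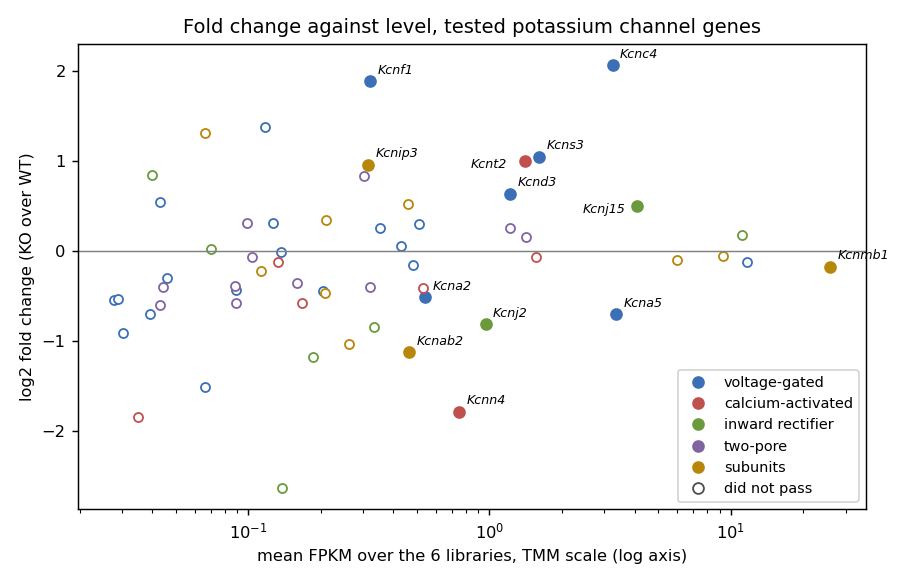
Log2 fold change (labelled knockout over wild type, TMM scale) against mean FPKM over the 6 libraries (log axis) for 60 tested potassium channel genes, coloured by class and filled where the gene passed. Called genes lie above 0.1 FPKM, and the open points below that level scatter with both signs.

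Genes that work beside the channels were read from lists of partners, sodium-potassium pump subunits and HCN channels. Of 31 such genes 25 were tested, with 7 higher, 8 lower and 10 that did not pass, 60.0% called beside 24.7% of all genes. These lists were chosen with earlier results of these data known, so the shares called in them, here and below, describe the lists only. Besides Abcc9, the partners Amigo1 (log2 0.49, adjusted p = 0.00434, edgeR), a membrane protein that joins Shab-type pores, and Sgk1 (log2 0.39), a kinase that raises channel abundance at the membrane, rose. Prkg1, the cGMP-dependent kinase that activates BK in relaxation, went from 2.57, 2.54 and 2.96 to 1.86, 1.73 and 1.89 FPKM and fell (log2 -0.56, SE 0.08, adjusted p = 0.000303, edgeR). With library totals its log2 fold change was -0.15 and did not pass. Akap5, an anchor for kinases at channels, fell (log2 -1.08, adjusted p = 0.0285, edgeR), a call lost in 7 of 16 alternative fits. Among these were library totals (log2 -0.67, adjusted p = 0.104, edgeR), no filter, both limma fits, and the fits without the second wild type library or the first or the third library labelled knockout (adjusted p up to 0.121).

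Of the pump genes, which pump potassium back into the cell, 4 rose and 4 fell among 13 tested, 61.5% called beside 24.7% of all genes. The beta subunits Atp1b1 (0.48) and Atp1b2 (0.50) and the regulator Fxyd1 (0.19) rose on the log2 scale, and the regulators Fxyd5 (-0.72) and Fxyd6 (-0.29) fell, of which Fxyd6 turned to 0.12 with library totals and missed the threshold at -0.13 with totals without mitochondrial genes (adjusted p = 0.15, edgeR). With nuclear copies left out too, Fxyd6 passed as lower (log2 -0.26, adjusted p = 0.012, edgeR). Fxyd1 missed the threshold without the first or the second library labelled knockout (adjusted p up to 0.0679, edgeR). HCN channels, pacemaker channels that pass sodium and potassium, fell for Hcn2 (log2 -0.96) and Hcn3 (log2 -1.62), and Hcn2 lost its call in 7 of 16 alternative fits. Among these were library totals (log2 -0.55, adjusted p = 0.101, edgeR), no filter, both limma fits, and the fits without the second wild type library or the second or the third library labelled knockout (adjusted p up to 0.0757, edgeR). Hcn3 missed the threshold in both limma fits (adjusted p up to 0.0746). Antisense genes cover 17.1% of the exon bases of Hcn3 and 18.7% of those of Atp1b1, so their reads could not be told apart without strand.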

How the data were processed

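RNA of mouse aorta in 6 libraries was analysed from 1 deposited table. Per the labels' protocols, polyadenylated RNA was sequenced as paired ends on an Illumina NovaSeq instrument, and the tools in the submitters' processing notes are HISAT2 2.0 and Bowtie 0.12.2, with mm8 as build. For the counting tool, annotation and use of strand, the sources used here name nothing. Coordinates are as in the table, which were identical to GENCODE M21 on GRCm38 for 81 of the 92 members.

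Among low values of the deposited counts, multiples of 4 are the most common, and the values were handled like estimated counts (about 4 to a read pair, from the values only). The deposited FPKM values were scaled by the authors to each library's total, mitochondrial genes included.

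Counts were tested with edgeR 4.0.16 in R 4.3.3: filterByExpr, TMM, glmQLFit and glmQLFTest, Benjamini-Hochberg over 20132 genes, threshold 0.05. SE is the log2 fold change over the root of F. Levels are deposited FPKM rescaled to TMM library sizes. Alternatives were DESeq2 1.42.0, limma 3.58.1 on log2(FPKM + 1) and log2(FPKM + 0.1), other scalings and filters, counts divided by 4, a replicate block, and leaving out each library. Totals without mitochondrial genes and 8 nuclear copies were added after the data were seen. On simulated data with gene-wise dispersions the edgeR fit made more false calls than its threshold allows, which bears on calls with an adjusted p close to it, such as Kcnip3 and Kcna2.

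Named are members that passed, the 3 most abundant of each class, the arterial list, partner, pump and HCN genes that passed with Abcc8 and Abcc9, and Josd2, except for some genes whose results are not reported here. Members, lists and tests were chosen with earlier results of these data known. Replicate numbers are those of the sample titles and were not used as pairs in the main test.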

Additional observations from a re-analysis of the deposited data

How the results depend on the processing

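Over all alternatives, 363 of 430 values of the named members kept their direction and side of the threshold, 26 lost the call, 15 gained one and 26 reversed. For the other named genes these were 205, 25, 0 and 3 of 233. The higher members went from 8 to 21 with library totals and under both limma fits, and the lower from 6 to 3 with library totals, 2 under both limma fits and 2 with a mean FPKM of at least 1. Class counts moved as follows: voltage-gated 7 to 11 with DESeq2, calcium-activated 2 to 1 with the FPKM filter, inward rectifiers 2 to 4 with DESeq2 and without the first library labelled knockout (both with Kcnj11, the latter also with Kcnj13) and 1 with the FPKM filter, two-pore 0 to 3 with totals and both limma fits, subunits 3 to 5 with totals and both limma fits and 1 with the FPKM filter, and arterial channels 6 to 12 with totals, 11 under both limma fits and 3 with the FPKM filter. Over all genes, 4981 were called, 53.4% of them higher, against 10193 and 92.5% with library totals, 6270 and 78.3% with totals without mitochondrial genes, and 5044 and 58.7% when nuclear copies were left out too. The cause of these changes was not tested.

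Log2 fold changes that reversed, with library totals, totals without mitochondrial genes, limma at pseudocount 1 and limma at pseudocount 0.1, were 0.31, 0.059, 0.27 and 0.31 for Kcnab1, 0.35, 0.095, 0.32 and 0.35 for Kcne4 (0.027 without the second wild type library), 0.29, 0.036, 0.27 and 0.29 for Kcnh2 and 0.34, 0.086, 0.21 and 0.32 for Kcnma1. With totals and the 2 limma fits they were 0.015, 0.0092 and 0.062 for Kcnk13, 0.054, 0.0074 and 0.037 for Kcnk2, 0.24, 0.23 and 0.24 for Kcnmb1 and 0.12, 0.11 and 0.12 for Fxyd6. None of these genes reversed when nuclear copies of mitochondrial genes were left out too, a setting added after the data were seen. Class sums reversed on the deposited FPKM for calcium-activated (log2 ratio 0.33 from -0.08) and subunit genes (0.27 from -0.14), and two-pore genes went from 0.11 to -0.025 without the first wild type library.

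Leaving out 1 library at a time gave 7 to 8 higher and 5 to 7 lower members, 6 to 7 voltage-gated, 2 calcium-activated, 2 to 4 inward rectifier, 0 two-pore, 2 subunit (from 3, as Kcnip3 was lost each time), 5 to 6 arterial and 13 to 15 partner, pump and HCN genes. Class sums (log2 ratio) ranged from 0.24 to 0.27 for voltage-gated, -0.11 to -0.04 for calcium-activated, 0.10 to 0.18 for inward rectifier, -0.025 to 0.21 for two-pore and -0.17 to -0.12 for subunit genes. With the replicate block, 7 members were higher and 6 lower, as Kcnip3 was lost, and 4560 genes were called. Same-numbered libraries did not deviate together (correlations -0.0288 to -0.00082), though with 3 libraries per group this cannot exclude a pairing. Depth limits members under 0.1 FPKM, where the median SE of 0.93 is close to a 2-fold change.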

Other observations

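Some potassium channel genes outside the naming rule were picked after their values were seen, and are given with their fits as a description. Kcng4, a silent subunit like Kcnf1, measured 0.0454, 0.101 and 0.041 FPKM in wild type and 0.212, 0.125 and 0.181 in libraries labelled knockout, and did not pass in edgeR (log2 1.38, SE 0.55, adjusted p = 0.0985) but did in DESeq2 (adjusted p = 0.0422). Kcng3, another silent subunit, was at 0 counts in all wild type libraries and at 12, 10 and 8 in libraries labelled knockout, which is at or under the floor of 12 counts, so no fold is given. Kcnv2, a silent subunit that joins Shab-type and other pores, went from 0.0607, 0.141 and 0.0938 to 0.0308, 0.0262 and 0.0466 FPKM (log2 -1.51, SE 0.64, adjusted p = 0.12 in edgeR and 0.0491 in DESeq2).

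Kcnj11, the KATP pore of pancreas and heart, measured 0.226, 0.263 and 0.286 FPKM in wild type and 0.175, 0.097 and 0.0691 in libraries labelled knockout (log2 -1.18, SE 0.45, adjusted p = 0.0825 in edgeR and 0.0323 in DESeq2). Kcnj8, the vascular pore, stood far above it in every library. Kcnn2, a small-conductance channel gene, had 25, 31 and 32 counts against 4, 15 and 16 (log2 -1.84, adjusted p = 0.112 in edgeR and 0.0364 in DESeq2). At about 4 counts per read pair these are a handful of pairs. Kcnj13 had 3, 30 and 33 counts against 14, 0 and 0, and 49.1% of its exon bases lie under the antisense gene Gigyf2.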
